A study of Mus musculus with 6 samples.

Results

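Nr5a1, Esr1 and Sf1 are 3 of the 265 genes read by the larger primer set of a targeted single-cell study of mouse hypothalamus. They were chosen by name. Nr5a1 encodes the nuclear receptor called steroidogenic factor 1, or SF-1, and the gene symbol Sf1 belongs to an unrelated protein, splicing factor 1. The cells came from KLB-CRE; Ai14 mice of C57/Bl6 background, in which the reporter tdTomato marks cells whose lineage has expressed Klb, the FGF21 co-receptor. Pronase (2 mg/ml, 30 min) released the cells from the tissue, and they were sorted for tdTomato and for viability with Hoechst. The labels give neither the sex nor the age of the mice, and all groups shared the alleles and the sort. Each of 3 captures (replicates 1 to 3) held a pool of 3 hypothalami, so a library is 1 pool and not 1 animal. The whole hypothalamus was taken, so the cells are not limited to its ventromedial nucleus.

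The ventromedial nucleus of the hypothalamus is known for its part in energy balance, glucose control, and sexual and defensive behaviour. Nr5a1 is a transcription factor needed for that nucleus to form, and within the brain it is used as a marker of its neurons. Esr1 encodes oestrogen receptor alpha, a nuclear receptor that turns genes on or off when it binds oestrogen, and it is found in the ventrolateral part of the nucleus and in several other hypothalamic areas. Sf1 binds the branch point of introns when the spliceosome assembles, and cells of every kind use it. Nr5a1 lies on chromosome 2, Esr1 on chromosome 10 and Sf1 on chromosome 19 of the mouse, and all 3 are protein-coding.

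The values are UMIs, the molecules counted for an amplicon in a cell. Amplicons of 1 gene were summed, and barcodes with at least 20 UMIs and 5 genes were kept as cells. Barcodes with no count in the larger set were first left out of panel 2 of replicates 2 and 3. Barcodes of panel 2 of replicate 2 that also stood in panel 1 of replicate 3 were left out too. Panel 1 of replicate 1 then kept 950 of 1555 barcodes, and panel 2 kept all 44, 43 and 87 that were left in replicates 1, 2 and 3. Over the 4 libraries this gave 1124 cells, with no barcode in more than 1 of them. The libraries held 105772, 11423, 79560 and 109452 UMIs in that order, and their median cells 51, 115.5, 1352 and 1068. Panel 2 of replicate 1 went against its label, since tdTomato was in 0 of its 44 cells, while replicates 2 and 3 had it in 95.3% and 98.9% of cells, and panel 1 of replicate 1 in 29.6%. Shares and levels over panel 2 are therefore given with and without it. Klb itself was at 0 in all 4 libraries. Panel 2 has n = 3 captures, and panel 1 of replicate 1 is given apart. All intervals are 95% intervals, Clopper-Pearson for shares and exact Poisson for UMIs, and cover counting error only. A share or level of 0 is given with another bound, the value that 3 counts of the total would give. Each UMI is 1 captured molecule at an end of a transcript, so levels were not scaled by length, and differences in how well primers work remain in any comparison between genes.

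Sf1 was in every cell of panel 2 and in most cells of panel 1 of replicate 1, Esr1 in most cells of 2 captures and in 1 cell elsewhere, and Nr5a1 in a minority of cells in 2 libraries. Nr5a1 was in 20 of 950 cells (2.11%, 1.29 to 3.23) in panel 1 of replicate 1, and in 8 of 43 (18.6%, 8.39 to 33.4) in panel 2 of replicate 2. It was in no cell of panel 2 of replicates 1 and 3, where 0 of 44 and 0 of 87 cells allow shares of up to 6.82% and 3.45%. Esr1 was in 1 cell of panel 1 of replicate 1 (0.105%) and in none of panel 2 of replicate 1, against 38 of 43 cells of replicate 2 (88.4%, 74.9 to 96.1) and 69 of 87 cells of replicate 3 (79.3%, 69.3 to 87.3). These 2 captures do not overlap the other libraries, and their intervals overlap each other. Sf1 was found in 755 of 950 cells (79.5%, 76.8 to 82.0) in panel 1 of replicate 1, and every cell of the 3 panel 2 libraries had it.

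**Figure D1:**
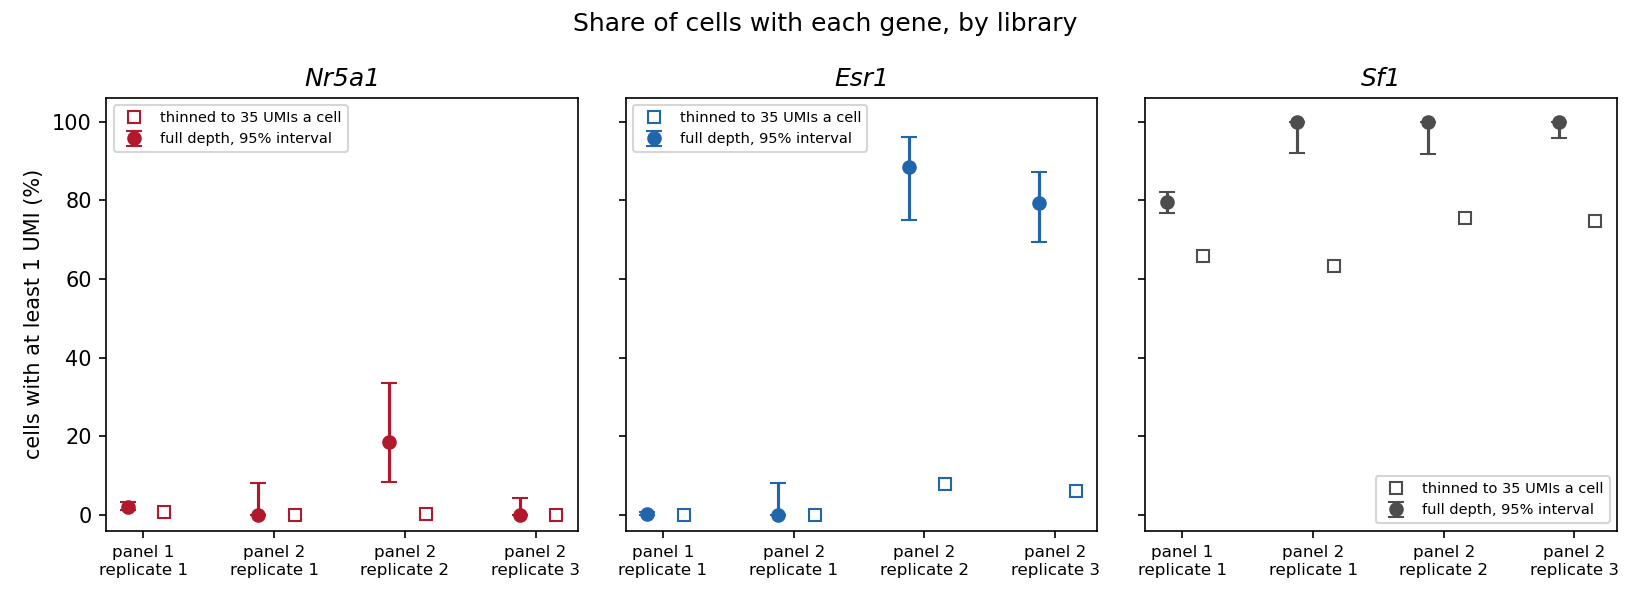
Share of cells with at least 1 UMI (percent) of Nr5a1, Esr1 and Sf1 in the 4 libraries, at full depth (filled points with Clopper-Pearson 95% intervals) and after thinning each cell to 35 UMIs (open squares, expected value). Sf1 stays between 63.2% and 75.4% after thinning, while Esr1 falls from 88.4% and 79.3% to 7.85% and 6.10% in replicates 2 and 3.

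The first question is how far the splicing factor and the ventromedial receptor with the similar protein name differ. Over panel 2, Sf1 was in 100% of cells and Nr5a1 in 6.20% ± 10.7 (SD, n = 3). The difference was 93.8 ± 10.7 percentage points, with Sf1 higher in 3 of 3 captures (p = 0.25 by a two-sided exact sign-flip test, the smallest that 3 captures allow). Without replicate 1 it was 90.7 points, and in panel 1 of replicate 1 it was 77.4 points. In UMIs per 1000 UMIs of the library, Sf1 stood at 35.6 ± 12.8 and Nr5a1 at 0.0419 ± 0.0726 (SD, n = 3), or 42.8 and 0.0628 without replicate 1. Sf1 had 143 times the UMIs of Nr5a1 in panel 1 of replicate 1 (92.4 to 234) and 364 times in panel 2 of replicate 2 (197 to 759). Where Nr5a1 had no UMI, Sf1 had 81.0 times the limit of 3 UMIs in panel 2 of replicate 1 and 1456 times that limit in replicate 3.

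Sf1 and Esr1 lay closer together in the captures that had Esr1. Esr1 was in 55.9% ± 48.6 of cells over panel 2 (SD, n = 3) and in 83.8% without replicate 1. The share with Sf1 was higher by 100, 11.6 and 20.7 points in replicates 1, 2 and 3, with a mean of 44.1 ± 48.6 points (SD, n = 3; p = 0.25 by the same exact test) that fell to 16.2 points without replicate 1. The UMIs differed more than the shares, since Sf1 had 16.6 times the UMIs of Esr1 in replicate 2 (14.5 to 19.1) and 20.7 times in replicate 3 (18.0 to 23.9). In no cell of any library did Esr1 or Nr5a1 have more UMIs than Sf1, and no cell with either of them lacked Sf1.

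Esr1 and Nr5a1, the 2 receptor genes, took opposite orders in different libraries. In panel 1 of replicate 1 Nr5a1 had 20 UMIs and Esr1 had 1. In panel 2 of replicate 2 Esr1 had 219 UMIs and Nr5a1 had 10, a ratio of 21.9 (11.7 to 46.3). In replicate 3 Esr1 had 211 UMIs and Nr5a1 none, which puts Esr1 at 70.3 times the limit of 3 UMIs. Over panel 2 the share with Esr1 was above that with Nr5a1 by 49.7 ± 43.3 points, higher in 2 of 3 captures and equal at 0 in the other (p = 0.5 by the same exact test). Leaving out replicate 1 moved this difference to 74.5 points. With 1 capture tied at 0 this test cannot give a p below 0.5. It therefore cannot decide the order of the 2 receptors over captures, which was not established.

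**Figure D2:**
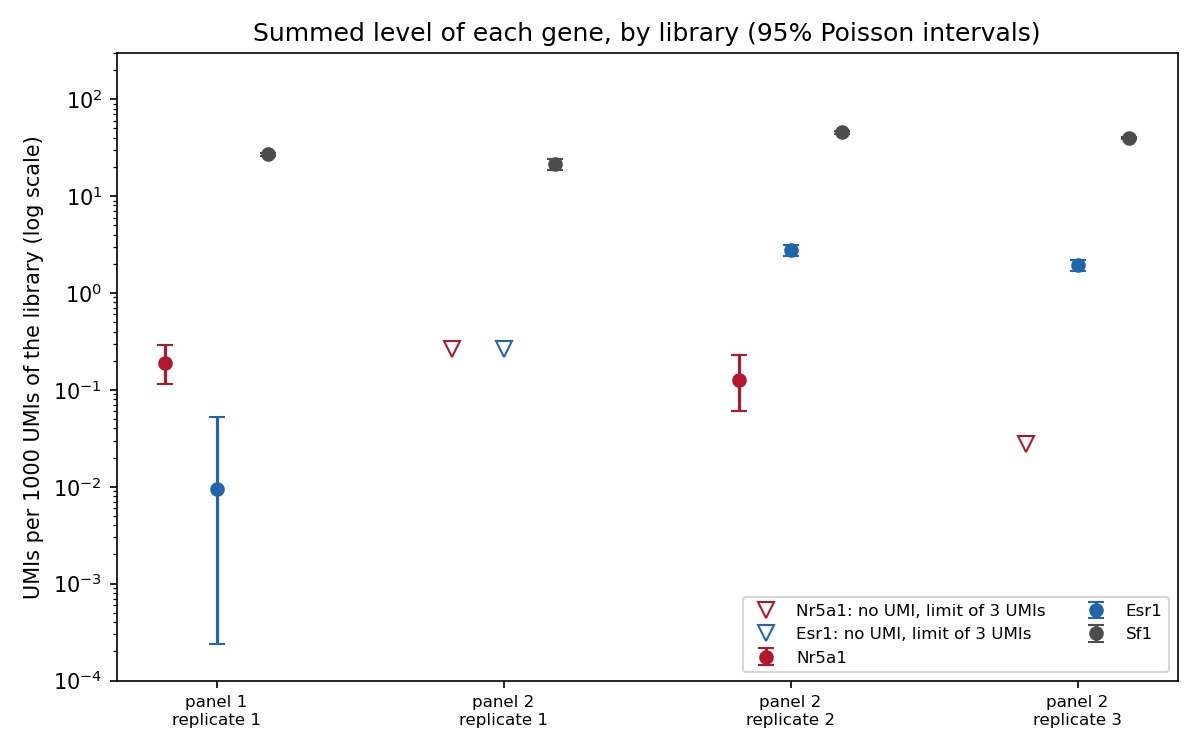
Level of each gene by library, as UMIs per 1000 UMIs of the library (log scale) with exact Poisson 95% intervals; open triangles mark libraries with no UMI, drawn at the limit that 3 UMIs give. Sf1 lies between 21.3 and 45.7 in the 4 libraries, and the 2 receptors exchange their order between panel 1 of replicate 1 and panel 2 of replicate 2.

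Nr5a1 was the rarest of the 3 genes wherever Esr1 was common. Its level was 0.189 UMIs per 1000 (0.115 to 0.292) in panel 1 of replicate 1 and 0.126 (0.0603 to 0.231) in panel 2 of replicate 2. The second was 0.665 times the first, with an interval of 0.278 to 1.49, so they did not differ beyond counting error, although the shares of cells differed. The 950 cells of the first library had a median of 51 UMIs and the 43 of the second had 1352. Thinned to 35 UMIs a cell, the expected shares were 0.783% and 0.308%, too near 0 to read an order from. The detected cells were the deep ones. All 20 Nr5a1 cells of panel 1 of replicate 1 were at or above the median depth of their library, and 5 of the 8 in panel 2 of replicate 2 were among its 8 deepest cells.

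Nr5a1 had no UMI in panel 2 of replicate 3, the library with the most UMIs. At the level of replicate 2, its 109452 UMIs would have held 13.8 Nr5a1 UMIs, and at that of panel 1 of replicate 1, 20.7. It held 0. The levels of replicate 2 and of panel 1 of replicate 1 were 4.59 and 6.90 times the limit that 3 UMIs give in replicate 3. These ratios leave out the counting error of the 2 levels. Each of these libraries is a single capture, so the difference is one between libraries, with no replicate check. In panel 2 of replicate 1 the same levels would have given 1.44 and 2.16 UMIs, so a difference was not detectable there.

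Each Nr5a1 cell of panel 1 of replicate 1 carried a single UMI. In panel 2 of replicate 2, 6 of the 8 cells carried 1 and 2 cells carried 2. In order of depth, these 8 cells held 1691, 1966, 2041, 2582, 2586, 2788, 3231 and 11434 UMIs. Their Esr1 UMIs were 23, 2, 5, 42, 11, 13, 18 and 26, and their Sf1 UMIs were 40, 108, 94, 75, 99, 117, 141 and 467. Every one therefore carried all 3 genes, with Sf1 the highest in each. Esr1 was also in 30 of the 35 cells without Nr5a1 (85.7%), whose median depth was 1261 UMIs against 2584 in the 8 cells. The level of Esr1 was 4.94 UMIs per 1000 in the 8 cells and 1.54 in the other 35. In panel 1 of replicate 1, by contrast, 0 of 20 Nr5a1 cells and 1 of 930 others carried Esr1.

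**Figure D3:**
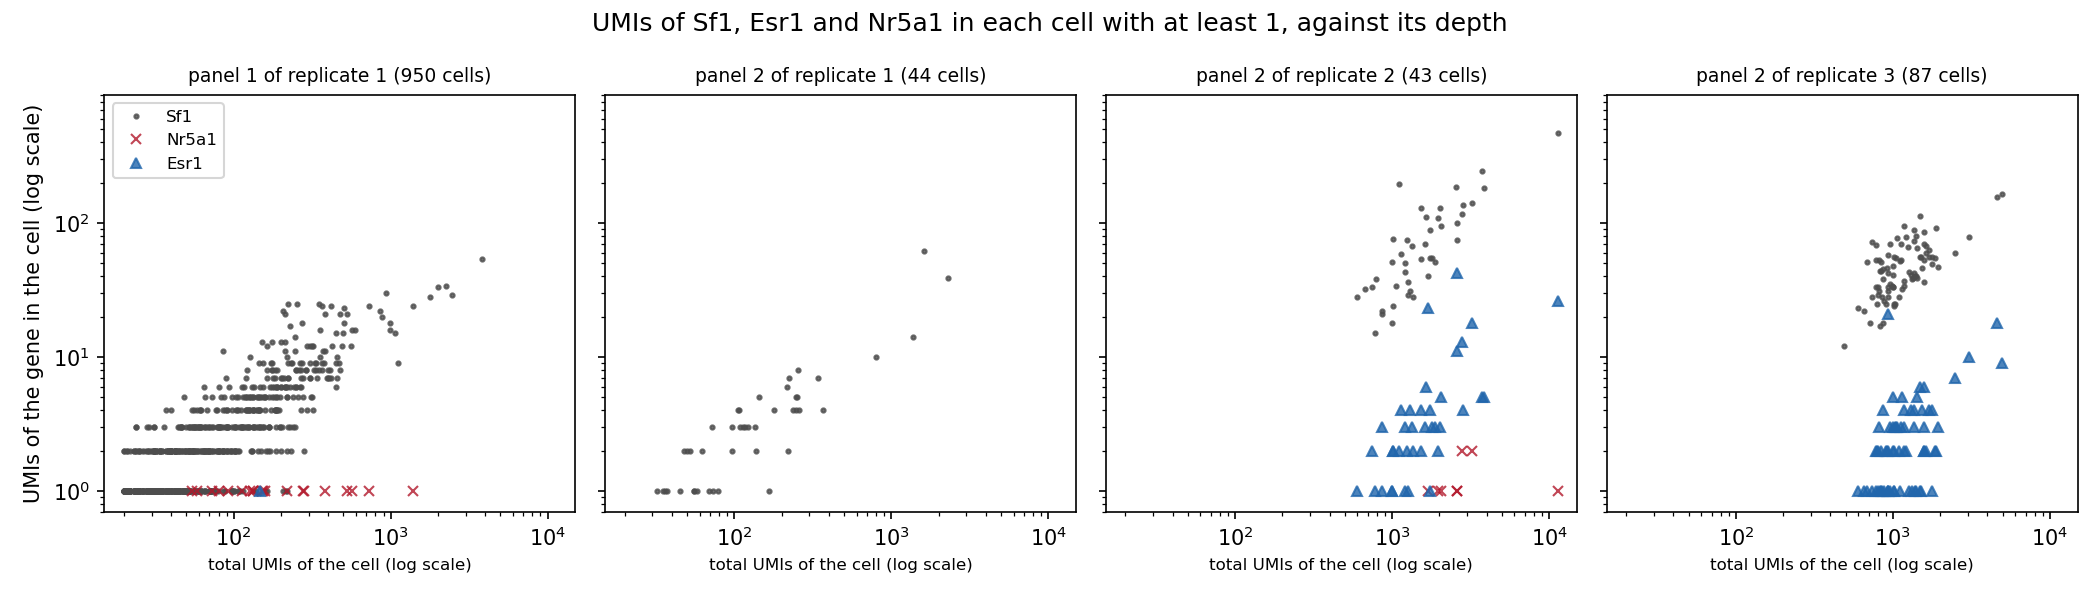
UMIs of Sf1 (dots), Nr5a1 (crosses) and Esr1 (triangles) in each cell that had at least 1, against the total UMIs of the cell (both axes log scale), by library. Sf1 rises with depth in all 4 libraries, Nr5a1 never exceeds 2 UMIs, and Esr1 reaches 42 UMIs in panel 2 of replicate 2.

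Esr1 was high in 2 captures and near 0 in the libraries of the other. Its level was 2.75 UMIs per 1000 (2.40 to 3.14) in panel 2 of replicate 2 and 1.93 (1.68 to 2.21) in replicate 3, a ratio of 1.43 (1.18 to 1.73). In panel 1 of replicate 1 it was 0.00945, from 1 UMI. Replicate 2 was thus 291 times that library (51.7 to 11552) and replicate 3 was 204 times (36.2 to 8092). Panel 2 of replicate 1 had no Esr1 UMI, and replicates 2 and 3 were at 10.5 and 7.34 times the limit that 3 UMIs give there. Panel 2 of replicate 1 would have held 31.4 and 22.0 Esr1 UMIs at the levels of replicates 2 and 3, where 0 were counted. Both libraries with little or no Esr1 come from replicate 1. The level of tdTomato was 0 in its panel 2 but 4.55 UMIs per 1000 in its panel 1, against 3.77 and 5.34 in panel 2 of replicates 2 and 3. What capture, sort and library each contribute cannot be told apart.

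Cells with Esr1 differed widely among themselves. In replicate 2 the median cell had 3 UMIs, the mean was 5.09 and the highest 42, and 5 cells had none. In replicate 3 the median was 2, the mean 2.43 and the highest 21, and 18 cells had none. The 5 cells with the most Esr1 held 55.7% of its UMIs in replicate 2 and 30.8% in replicate 3. The variance around a level proportional to depth was 7.09 and 3.43 times the mean, where counting alone gives 1, so the interval on the ratio between the 2 captures is narrower than the spread between cells. At 1 level for all cells, 96.2% and 87.1% of cells would have had a UMI, against 88.4% and 79.3% observed. At least 2 UMIs were in 69.8% and 51.7% of cells. Thinned to 400 UMIs a cell, a depth added after the data were seen, the expected shares were 53.7% and 47.7%. Esr1 correlated with the total UMIs of a cell (Pearson r = 0.545 over 43 cells and 0.560 over 87), where cells share a library and Esr1 is part of the total.

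Sf1 was among the most counted genes in every library. Of 265 genes it ranked 11 by UMIs in panel 1 of replicate 1, with ranks of 14, 7 and 6 for replicates 1, 2 and 3 in panel 2. Its cells had medians of 1, 3, 55 and 45 UMIs in the same order, with ranges of 0 to 54, 1 to 62, 15 to 467 and 12 to 163. Per 1000 UMIs it stood at 27.0 (26.0 to 28.0), 21.3 (18.7 to 24.1), 45.7 (44.2 to 47.2) and 39.9 (38.7 to 41.1). Both libraries of replicate 1 lay below those of replicates 2 and 3, and no pair of neighbouring levels had overlapping counting intervals. Replicate 2 was 2.15 times (1.89 to 2.46) and replicate 3 was 1.88 times (1.65 to 2.14) the level of panel 2 of replicate 1. This range is narrow beside that of Esr1, but each library is 1 capture and no test of the difference in spread was made.

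The missing Sf1 cells of panel 1 of replicate 1 were the shallow ones. Sf1 was in 57.7% of the 317 shallowest cells (median 26 UMIs), 82.6% of the 316 in the middle (51 UMIs) and 98.1% of the 317 deepest (169 UMIs). Its level in these classes was 27.4, 28.6 and 26.7 UMIs per 1000. Spread at 1 level over all cells, it would have been found in 74.4% of them, against 79.5% observed. After thinning to 35 UMIs, which left out 306 cells there and 1 in panel 2 of replicate 1, Sf1 was expected in 65.9%, 63.2%, 75.4% and 74.6% of cells. Its UMIs followed the total of the cell with Pearson r of 0.821, 0.865, 0.898 and 0.744 over 950, 44, 43 and 87 cells of 1 library each, with Sf1 being part of that total. Around a level proportional to depth the variance was 1.35 and 1.24 times the mean in the 2 libraries of replicate 1, and 18.4 and 7.26 times in panel 2 of replicates 2 and 3. Cells of those deeper libraries therefore ranged from 18.1 to 175 and from 20.7 to 98.1 Sf1 UMIs per 1000.

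Nr5a1 and Esr1 were each read by 1 amplicon, at the reference end of transcripts NM_001316687.1 and NM_001302531.1. Sf1 (NM_001110791.1) was read by 2, one called PolyA_1 and the other Reference_end. The Reference_end amplicon held 3.60% of Sf1 UMIs (2.95 to 4.35) in panel 1 of replicate 1. In panel 2 it held 2.47% (0.911 to 5.30), 11.6% (10.5 to 12.6) and 11.5% (10.6 to 12.5) in replicates 1, 2 and 3. The 2 libraries of replicate 1 thus lay below those of the other replicates, with no overlap of intervals. The split did not rise or fall steadily with depth within a library. It was 13.8%, 10.4% and 11.3% in the shallow, middle and deep cells of replicate 2. In those of replicate 3 it was 13.2% (11.2 to 15.4), 7.95% (6.56 to 9.54) and 13.0% (11.5 to 14.5). The middle cells of replicate 3 thus lay below the others beyond counting error. Of 19 genes with 2 amplicons, 3 had at least 100 UMIs in each library. The others, named after their values were seen, were Rarres2, at 45.7% to 51.2% on that amplicon, and Tmem18, at 61.0% to 100%. Without the Reference_end amplicon Sf1 would still be in 79.1% of cells of panel 1 of replicate 1, since the PolyA_1 amplicon alone was in 751 of them.

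**Figure D4:**
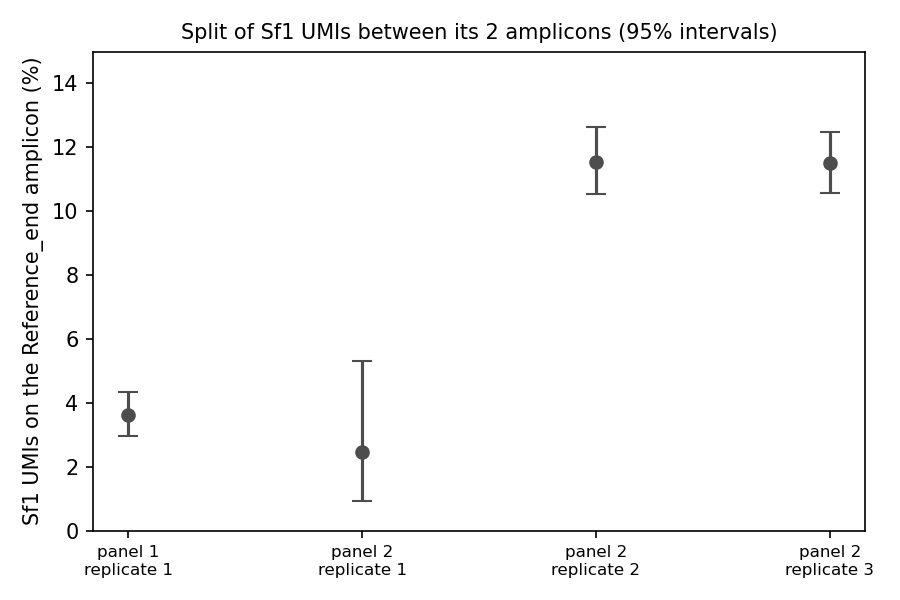
Percent of Sf1 UMIs that fell on its Reference_end amplicon in each library, with Clopper-Pearson 95% intervals. The 2 libraries of replicate 1 stand at 3.60% and 2.47%, and panel 2 of replicates 2 and 3 at 11.6% and 11.5%.

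The other genes of the larger set were ranked by likeness to each of the 3, as the mean absolute difference in the share of cells over the 4 libraries. Sf1 was nearest to the early response gene Btg2 (0.0263 points), the mitochondrial carrier gene Ucp2 (0.526) and the corepressor gene Trim28 (0.974), and 8 genes lay within 5 points of it. All 3 were in every cell of panel 2 and in 79.6%, 81.6% and 83.4% of cells of panel 1 of replicate 1. Sf1 and these 3 were among 9 of 265 genes (3.40%) found in every cell of all 3 panel 2 captures. Esr1 was nearest to the sorting nexin gene Snx32 (3.08 points), the glycosyltransferase gene Mgat4b (5.56) and the neurotrophic factor gene Cntf (6.39). Like Esr1, these were at 0 in panel 2 of replicate 1 and in most cells of replicates 2 and 3, with 81.4% and 78.2% for Snx32. In panel 1 of replicate 1 these 3 were in 4.32%, 2.63% and 10.6% of cells, against 0.105% for Esr1. Nr5a1 was nearest to Serpina3n (4.31 points), Pgr15l (4.60) and the retinoic acid receptor gene Rarb (4.73), but 10 genes lay within 5 points. None of these 3 passed 2.33% of cells in panel 2 of replicate 2, where Nr5a1 was in 18.6%.

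**Figure D5:**
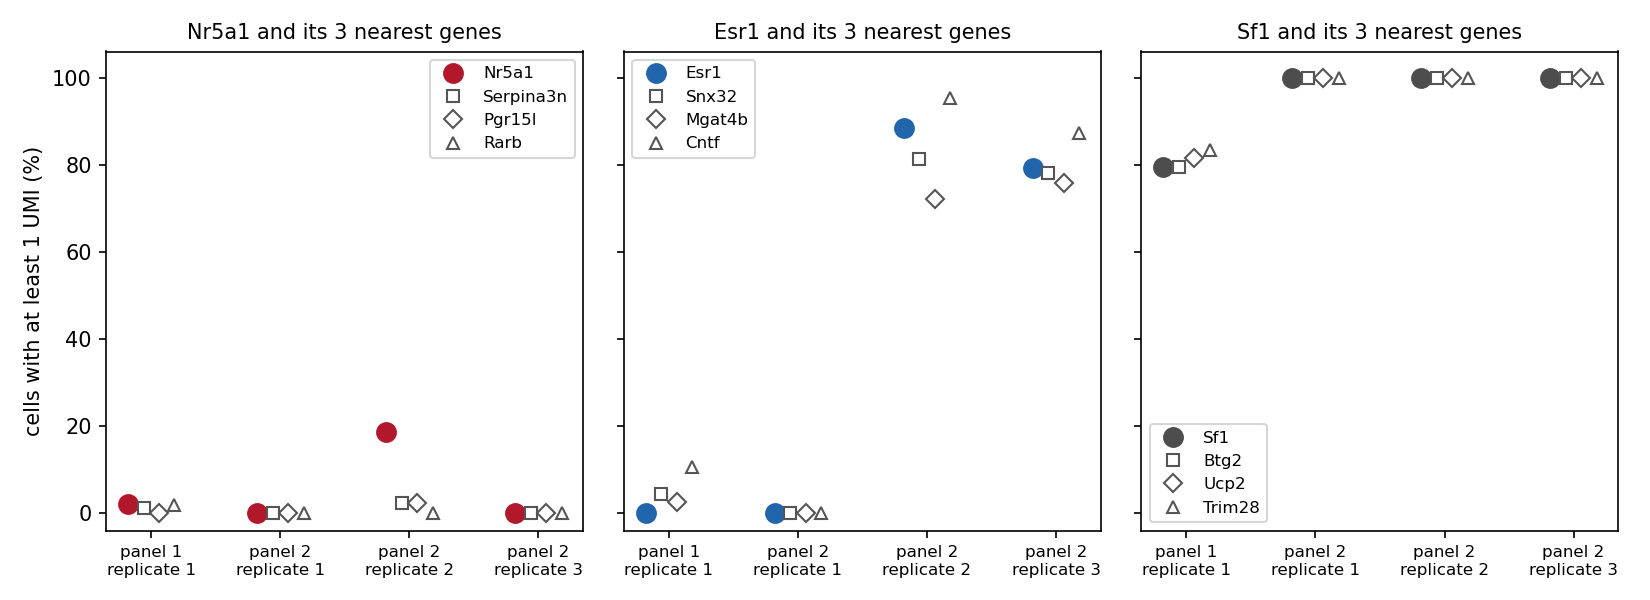
Share of cells with at least 1 UMI (percent) in the 4 libraries for Nr5a1, Esr1 and Sf1 (filled) and for the 3 genes nearest to each by mean absolute difference in share (open). The neighbours of Sf1 overlie it, those of Esr1 range from 72.1% to 95.3% in replicate 2, and those of Nr5a1 lie below it there.

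The other measured genes linked to the ventromedial nucleus had no UMI in panel 2. Of 18 on the list, 5 were measured. Fezf1, a transcription factor gene of the developing nucleus, was in 77 cells (8.11%) of panel 1 of replicate 1 and in no cell of panel 2. The progesterone receptor gene Pgr was in 13 cells (1.37%) of the same library and in no other. The leptin receptor gene Lepr and the cholecystokinin receptor gene Cckbr were at 0 in all 4. So 3, 0, 1 and 0 of the 5 were detected in panel 1 of replicate 1 and the 3 libraries of panel 2, beside 157, 50, 93 and 119 of all 265 genes. Over the whole set, 92 genes (34.7%) were at 0 in all 4 libraries. Esr1 was not on that list.

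Among the nuclear receptors, 10 of 31 on the list were measured, and 7, 0, 4 and 4 of them were detected in the 4 libraries, in the order used above. Nr4a1, an early response receptor, was in 69.6%, 0%, 100% and 77.0% of cells. No other measured receptor passed it except Esr1, which was in 79.3% of cells of replicate 3. The retinoid receptor gene Rxrg was in 76.7% of cells of replicate 2 and in 1.15% of replicate 3. The thyroid hormone receptor gene Thrb was in 9.58% of panel 1 of replicate 1 and in 21.8% of replicate 3, with 0 in between. Nr5a2, the close relative of Nr5a1, was in 5.26% of panel 1 of replicate 1 alone, as was Rarb in 1.79%. Esr2, which encodes oestrogen receptor beta, and Nr0b1, which encodes a partner that represses the product of Nr5a1, were at 0 everywhere. Of the 13 coregulators and oestrogen-linked genes 3 were measured: Trim28 as above, the oxytocin receptor gene Oxtr in 5 cells of panel 1 of replicate 1, and the prolactin receptor gene Prlr at 0. Sf1 was the single measured gene of 16 on the splicing list, so no other splicing factor can be set beside it. The median share of the nuclear receptors was 1.58% in panel 1 of replicate 1, against 1.79% for all genes, and both medians were 0% in each panel 2 library.

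The libraries were checked against lists of marker genes of several kinds of cell. All 6 neuron markers measured were at 0 in panel 2 of replicate 2, a library in which both Nr5a1 and Esr1 were detected. In replicate 3, 5 of the 6 were at 0, and the sixth, Gad2, was in 79.7% of Esr1 cells and 72.2% of the others. In panel 1 of replicate 1, 11 of 20 Nr5a1 cells had a neuron marker against 26.5% of the others, at median depths of 152.5 and 50 UMIs, and per 1000 UMIs the list was lower in them, at 2.29 against 4.16. The myeloid marker Fcer1g was in every cell with Esr1 and in every Nr5a1 cell of panel 2 of replicate 2, as in every cell without them in panel 2 of replicates 2 and 3. Its level in replicate 2 was 60.3 UMIs per 1000 in Nr5a1 cells and 96.3 in the others. By Fcer1g, no cell class lacking Esr1 could therefore be set apart as a background. The tanycyte list was in 23 of 38 Esr1 cells and 0 of 5 others in replicate 2, at median depths of 1519.5 and 1053 UMIs. In replicate 3 it was in 92.8% of Esr1 cells and 94.4% of the others. Split at the median level of a list, the upper and lower cells of replicate 3 had Esr1 in 76.7% and 81.8% for each of the vessel, astrocyte and fibroblast lists, and in 81.4% and 77.3% for both the tanycyte list and Fcer1g. The shares were 83.7% and 75.0% for the precursor list, 86.0% and 72.7% for the mural list, and 79.1% and 79.5% for the neuron list. For each of these lists the intervals of the upper and lower cells overlapped. RNA shared between cells, or several cells under 1 barcode, was not tested as a source of these UMIs.

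Cells with and without Esr1 were compared over the 104 genes that could be tested, with counts summed by library and class in panel 2 of replicates 2 and 3 (38 against 5 cells, and 69 against 18). By edgeR's quasi-likelihood test with the library as a block, 0 of 104 genes passed an adjusted p of 0.05 (0%), and 4 had an unadjusted p under 0.05. DESeq2 called 1, Ugt8a, which encodes an enzyme of myelin lipid synthesis. Its level was 18.5 UMIs per 1000 in Esr1 cells and 5.05 in the others of replicate 2, and 0.666 and 0.259 in replicate 3. The log2 difference was 1.71 (SE 0.552, edgeR adjusted p = 0.264). The next by p were Fgfr2 at 2.29, Bcas1 at 1.08 and Igf1 at 1.86 (log2), none past the threshold. Without the deepest cell of each library, a setting added after the data were seen, the differences of Ugt8a, Fgfr2 and Bcas1 were 0.31, 0.64 and 0.69. Without the 5% deepest cells they were 0.31, 0.66 and 0.58. Igf1 changed less, to 1.67 and 1.64 under these settings. Sf1 differed by -0.19 (SE 0.345, edgeR adjusted p = 0.961). The Esr1 cells were deeper, with medians of 1519.5 against 1053 UMIs in replicate 2 and 1095 against 992 in replicate 3, and a cell must hold enough UMIs to enter that class.

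The same comparison for Nr5a1 used panel 1 of replicate 1 (20 against 930 cells) and panel 2 of replicate 2 (8 against 35). Of 130 genes tested 1 passed (0.769%), and it was again Ugt8a, higher in Nr5a1 cells by 1.91 on the log2 scale (SE 0.432, edgeR adjusted p = 0.00279). The levels were 2.99 against 1.64 UMIs per 1000 in panel 1 of replicate 1 and 38.3 against 5.95 in panel 2 of replicate 2. Most of the Ugt8a UMIs of the Nr5a1 cells in panel 2 of replicate 2 were in 1 cell. The 8 Nr5a1 cells of replicate 2 held 5, 11, 20, 13, 18, 34, 49 and 935 Ugt8a UMIs in order of depth, so that the deepest cell, of 11434 UMIs, held 86.2% of them. The 35 other cells ranged from 0 to 17, with a median of 9. Per 1000 UMIs, 7 of the 8 cells lay between 2.96 and 15.2 and the deepest at 81.8, while the others reached 14.8. Without the deepest cell of each library the log2 difference of Ugt8a was 0.55 and edgeR's adjusted p 0.972. DESeq2 called 0 genes, with Ugt8a at 1.80. edgeR called 0 without the replicate block, with Ugt8a at 2.32 (edgeR adjusted p = 0.994), as it did without TMM scaling and without the filter on low counts, where Ugt8a stood at 1.88 and 1.77. Ermn, another gene of myelinating cells, was at 2.29 against 2.47 UMIs per 1000 in panel 1 of replicate 1 and at 17.7 against 5.39 in panel 2 of replicate 2, with a log2 difference of 0.93 (SE 0.517, edgeR adjusted p = 0.932). Between cells with and without Esr1, Ermn stood at 10.1 against 6.63 in replicate 2 and 0.910 against 0.466 in replicate 3. The log2 difference there was 0.75. Without the deepest cell of each library that of Ermn was -0.18 in the Nr5a1 fit and 0.21 in the Esr1 fit. Without the 5% deepest cells it was -0.30 and -0.32. Between cells with and without Nr5a1, Sf1 differed by -0.10 (SE 0.568, edgeR adjusted p = 0.956), and Esr1 by 1.56 (SE 1.08, edgeR adjusted p = 0.956).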

How the data were processed

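The authors deposited counts of UMIs per cell and amplicon, not normalized. Per the file headers they came from BD's Targeted Rhapsody Analysis Pipeline, as version 1.3 in panel 1 of replicate 1 and 1.5 elsewhere. The submitters' processing notes name the build mm9. No source used here names the aligner or how cells were called. Chromosomes came from a reference annotation, and no coordinates were used.

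From these counts, cells were kept as stated above and no doublets were called. The 21 barcodes that stand in tables of 2 replicates entered no comparison. Thinned shares are exact expectations. The classes with and without a gene were summed in libraries with at least 5 cells of each, the split gene left out, and fitted with edgeR 4.0.16 (filterByExpr, TMM, library as a block, Benjamini-Hochberg) and, as an alternative, DESeq2 1.42.0, in R 4.3.3. The block pairs cells of 1 library. SE is the log2 difference over the root of F. Python 3.11.15 with scipy 1.17.1 did the rest. The functions were tested on simulated data.

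Named genes were the members, the 3 genes nearest to each, Klb and tdTomato, the called genes of each fit (or the 5 with the smallest p), and all measured genes of 4 lists. Ermn was named after its values were seen. The members and lists were chosen with earlier results of these data known. Markers of neurons and of myeloid, vessel, precursor, astrocyte, tanycyte, mural and fibroblast cells were counted. Results that rest on certain genes, the oligodendrocyte list among them, are not reported here. Values are over pooled captures. The p-values of the sign-flip test were set here by the number of captures and the signs of the differences. They do not measure the spread between pools. The p-values of edgeR and DESeq2 come from sums by library and class in the few libraries of each fit. Their variance is estimated largely across genes, so they say little on that spread.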

Additional observations from a re-analysis of the deposited data

Results flagged for a closer look

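The 21 barcodes found in the tables of 2 replicates belong to no comparison above. Sf1 had a UMI in 20 of them (95.2%, 76.2 to 99.9), above the 14.3% that 3 of 21 give as the limit of a count of 0, at 21.1 UMIs per 1000. Of their 420 Sf1 UMIs, 366 were in a single barcode. Nr5a1 and Esr1 were at 0 in all 21, where the same limit of 3 counts allows a share of up to 14.3% and a level of up to 0.151 UMIs per 1000. At the depth of these barcodes (median 143 UMIs, range 29 to 16507) the Esr1 level of panel 2 of replicates 2 and 3 lies above that limit, and the Nr5a1 level of replicate 2 lies below it.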

How the results depend on the processing

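Sf1 stayed above both receptors in panel 2, and the mean of Esr1 above that of Nr5a1, under each setting of depth, detection and cell filter and without any 1 replicate. Over panel 2 the share with Esr1 was 4.65% when thinned to 35 UMIs. The share with Sf1 was 71.1% when thinned, 90.9% with at least 2 UMIs required and 99.5% with the barcodes of 2 replicates kept. Other panel 2 means of shares and levels moved by less than 1 SD over captures, which for Nr5a1 and Esr1 is a wide margin. In panel 2 of replicate 2 alone, keeping the barcodes of 2 replicates lowered the share with Esr1 from 88.4% (74.9 to 96.1) to 59.4%. The share with Nr5a1 there went from 18.6% (8.39 to 33.4) to 12.5%. Thinned, Sf1 stood above Nr5a1 by 71.0 points and above Esr1 by 66.5, and Esr1 above Nr5a1 by 4.55. In panel 1 of replicate 1 the share with Nr5a1 was 4.09% among cells of at least 50 UMIs, 0.783% thinned and 0% with 2 UMIs required, and that with Esr1 was 0% with 2. The share with Sf1 there was 59.7% over all barcodes, 94.3% with at least 50 UMIs, 65.9% thinned and 49.8% with 2 UMIs. Without 1 replicate the share with Nr5a1 ranged from 0% to 9.30%, that with Esr1 from 39.7% to 83.8%, and Sf1 stayed at 100%.

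Between cells with and without Esr1, DESeq2 called 1 gene, and 1 was called with at least 2 UMIs against 0; both were Ugt8a. The other settings, the fit without a replicate block among them, called 0. Between cells with and without Nr5a1, the 1 call was kept among cells at or above the median depth. It became 0 without the replicate block, with DESeq2, without TMM scaling, without the filter on low counts, without the 5% deepest cells and without the deepest cell of each library; edgeR's smallest adjusted p there ranged from 0.287 to 0.994 and DESeq2's was 0.999. Why the call was lost under these settings was not tested. Not run, for want of a second library with 5 cells of each class, were the Esr1 fit at or above the median depth, the Nr5a1 fit with 2 UMIs, and either fit without a library. The settings on the deepest cells and the thinning to 400 UMIs were added after seeing the data.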
